A study of Homo sapiens with 39 samples.

Results

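The guanylate-binding proteins are a family of large GTPases encoded side by side on chromosome 1, and the members described here are GBP1, GBP2, GBP3, GBP4 and GBP5. Their mRNA was measured in 7 human acute myeloid leukemia lines given tamibarotene (SY-1425), a retinoid drug that activates retinoic acid receptor alpha, or DMSO as vehicle. A member was taken as every probe set on the Affymetrix PrimeView array whose annotation names that symbol alone, which gave 15 of the 49395 probe sets. Where a member had several, the brightest on average over the 39 arrays gave its value, so that the family makes up 5 of the 18132 genes tested.

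The tamibarotene groups are KG-1a, OCI-M1, Kasumi-1, Sig-M5, MV-4-11, OCI-AML3 and NOMO-1 cells, with 3 arrays each, after 24 h with drug that the labels describe as 100 nM for a final 50 nM. The vehicle groups are the same lines after 24 h in DMSO, with 3 arrays each, except that KG-1a, Kasumi-1 and Sig-M5 have 2. Each leukemia is represented by 1 established line, and the labels do not say whether replicates were separate cultures, so p-values measure the spread between these samples, which may be technical. Levels are log2 intensities made with RMA (robust multi-array average), a change is the mean of tamibarotene arrays minus the mean of vehicle arrays on that log2 scale, and a change was called at a limma adjusted p under 0.05 over all genes. In these bulk samples, fewer cells expressing a gene and less RNA per cell cannot be told apart.

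Guanylate-binding proteins are classic products of interferon-gamma signalling, in which the receptor chains IFNGR1 and IFNGR2 lead to transcription through gamma-activated sequences and through the interferon regulatory factor IRF1. The proteins hydrolyse GTP, assemble into coats on intracellular bacteria and vacuoles, and help to engage the inflammatory caspases. GBP1, GBP2 and GBP5 end in a CaaX box that is prenylated and anchors them to membranes, whereas GBP3 and GBP4 lack one and join coats through other members. Along chromosome 1 the RefSeq gene table places the genes in the order GBP3, GBP1, GBP2, GBP7, GBP4, GBP5 and GBP6.

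Promoter sequence was looked up to show the elements through which interferon acts on this family. RefSeq promoters of GRCh38.p14, from 250 bases before to 50 bases after the transcription start, matched 3 of the 5 members, and GBP2 and GBP5 are named only. All 3 promoters held the interferon regulatory factor element GAAANNGAAA, searched on both strands, and in each it lay on the strand opposite to the gene. The 30-base stretches around it are printed on the strand of the gene, with the element in capitals. In GBP3 the capitals also mark a gamma-activated sequence, TTCNNNGAA, searched on both strands and not overlapping the other element.
GBP1: tgatttgaacgaagtacTTTCAGTTTCata
GBP3: TTCCTTGAAagaagtacTTTCAGTTTCatt
GBP4: ccacaaagtgcatgtccTTTCAATTTCggt
The GBP1 stretch lies at chr1:89065323-89065352, the GBP3 stretch at chr1:89022852-89022881 and the GBP4 stretch at chr1:89198934-89198963, all on the minus strand. Counted from the transcription start, the element ran from -127 to -118 in GBP1, from 3 to 12 in GBP3 and from -4 to 6 in GBP4. The GBP1 and GBP3 stretches were identical at 25 of 30 bases (83.3%), while their elements sat at different distances from the start. Both stretches were cut to hold the element at the same place, so its fixed letters match by that choice. A match to the interferon regulatory factor element was present in 3.65% of 27305 promoters of the same length, and one to the gamma-activated sequence in 7.88%. No retinoic acid response element in the direct repeat 5, 2 or 1 form was found in these 3 windows, against 0.0806%, 0.0439% and 0.132% of all promoters. These matches describe letters in a window and carry no measurement of binding.

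Array medians ran from 5.01 to 5.17, and the line labels were read against fixed marker lists. Of 9 myeloid and leukocyte markers, between 4 in KG-1a and 7 in Kasumi-1, NOMO-1, OCI-AML3 and Sig-M5 were above 5 on the log2 scale in vehicle arrays. The mean of 5 erythroid and megakaryocytic markers stood highest in OCI-M1, a line from an erythroleukemia, at 8.80 to 8.997 in tamibarotene arrays and 8.88 to 8.93 in vehicle arrays, against no more than 6.49 on any array of another line. That of 7 lymphoid markers stood highest in KG-1a, at 6.16 to 6.28 in tamibarotene arrays and 6.24 to 6.25 in vehicle arrays. No array of another line exceeded 5.17 for these lymphoid markers. The 3' minus 5' difference of the beta-actin control probe sets, which is larger where RNA is degraded, was 0.31 to 0.34 in tamibarotene arrays and 0.81 to 1.89 in vehicle arrays of Sig-M5. In Kasumi-1 it was 0.20 to 0.22 in tamibarotene arrays and 0.30 to 1.18 in vehicle arrays. Every Sig-M5 and Kasumi-1 change below, of members and other genes alike, compares arms that differ in this measure. Results with it as a covariate were kept for the members only.

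Tamibarotene raised members of the family in 4 of the 7 lines, and GBP4 moved most. Of the 35 pairs of member and line, 7 were called up, 1 was called down and 27 did not pass the test. GBP4 rose by 4.10-fold to 5.69-fold in MV-4-11, NOMO-1 and OCI-AML3 by its brightest probe set, and by less on most of the others. GBP5 rose in NOMO-1 and KG-1a, GBP2 rose in NOMO-1 and fell in Sig-M5, GBP3 rose in OCI-AML3, and GBP1 passed the test in no line.

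Read against all genes, the counts were uneven between lines. NOMO-1 had 3 of 5 members called up, where 2.77% of all genes were, and none called down, where 0.711% were. OCI-AML3 had 2 called up against 5.5% of genes, and none called down against 6.36%. MV-4-11 and KG-1a had 1 each called up, against 4.32% and 1.21% of genes, and none called down, against 3.4% and 1.88%. Sig-M5 had none called up against 8.5% of genes and 1 called down against 18.4%, which leaves its count near the background. No member was called in Kasumi-1, where 0.48% of genes were called up and 2.36% down, or in OCI-M1, where 0.7% were called up and 0.386% down. On the mean of the 7 lines' changes, GBP3, GBP4 and GBP5 were called up and no member down, against 6.71% and 12.4% of genes. The median change of the 5 members was 0.90 in NOMO-1 and 0.52 in KG-1a, against 0.02 and -0.02 for all genes, and it lay between -0.22 and 0.17 in the other lines.

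**Figure D1:**
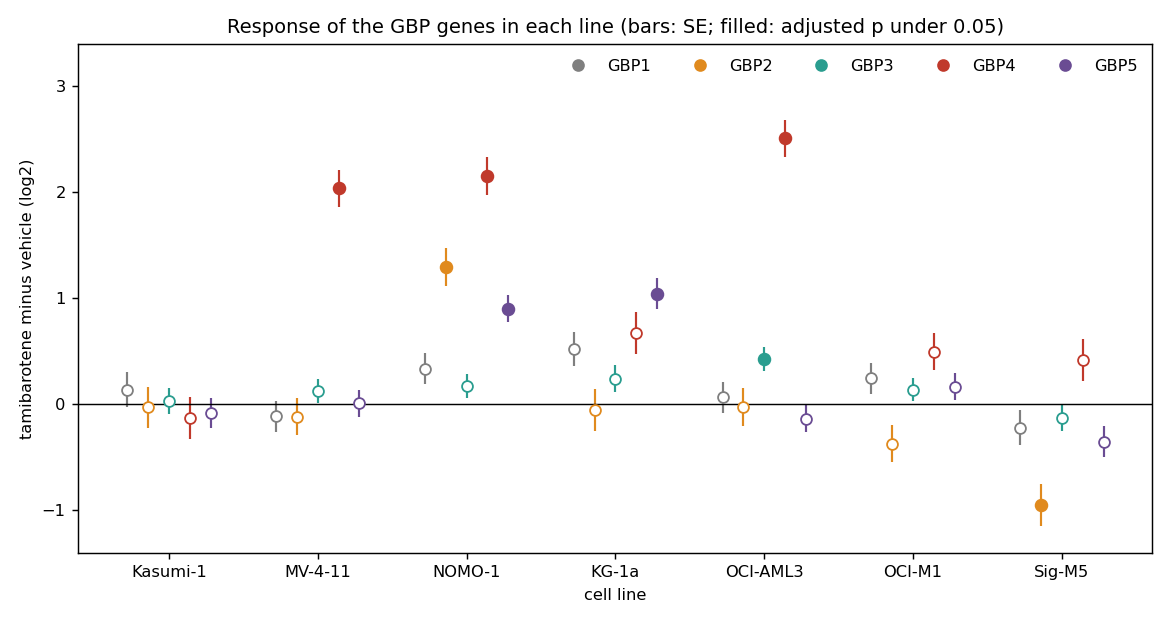
Change of GBP1 to GBP5 (tamibarotene minus vehicle, log2, vertical axis) in each of the 7 lines (horizontal axis), with bars of 1 standard error from limma; filled points have an adjusted p under 0.05 and open points do not. The 3 GBP4 points near or above 2 belong to MV-4-11, NOMO-1 and OCI-AML3, and the only filled point below 0 is GBP2 in Sig-M5.

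GBP4, a member without a CaaX box, differed sharply between lines before any drug. Its vehicle level averaged 8.69 ± 0.07 in OCI-M1 (SD, n = 3) and 7.06 ± 0.21 in KG-1a (SD, n = 2). In MV-4-11, NOMO-1, OCI-AML3, Sig-M5 and Kasumi-1, in that order, vehicle means lay between 4.69 and 4.36, and the arrays of each line overlapped those of the next. Vehicle levels differed between lines for GBP4 (moderated F test in limma, adjusted p = 2.12e-20), as they did for all 5 members and for 78.6% of genes.

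The GBP4 response was large in 3 of the lines with a low vehicle level. In OCI-AML3, GBP4 stood at 7.01, 6.83 and 6.90 in tamibarotene arrays, against 4.41, 4.55 and 4.25 in vehicle arrays. NOMO-1 gave 6.54, 6.70 and 6.70 with tamibarotene and 4.72, 4.65 and 4.09 with vehicle. For MV-4-11 the tamibarotene arrays held 6.96, 6.71 and 6.51 and the vehicle arrays 4.88, 4.78 and 4.39. In these 3 lines every tamibarotene array lay more than 1 log2 unit above every vehicle array. The change was 2.51 ± 0.18 in OCI-AML3 (SE, 5.69-fold, adjusted p = 2.45e-12), 2.16 ± 0.18 in NOMO-1 (SE, 4.46-fold, adjusted p = 3.43e-10) and 2.04 ± 0.18 in MV-4-11 (SE, 4.10-fold, adjusted p = 2.72e-10). All 5 GBP4 probe sets separated the groups in these lines, but their sizes varied, from 0.83 to 2.76 in OCI-AML3, 0.52 to 2.16 in NOMO-1 and 0.73 to 2.51 in MV-4-11. Averaged over the 5 probe sets, the change was 1.82, 1.49 and 1.58 in the same order of lines (largest adjusted p = 8.40e-10).

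Kasumi-1 and Sig-M5 started from the same low GBP4 level without a called change. Kasumi-1 had 4.52, 3.87 and 4.29 in tamibarotene arrays and 4.33 and 4.39 in vehicle arrays, which overlap, and its change was -0.13 ± 0.20 (SE, adjusted p = 0.782). Sig-M5 had 4.71, 5.09 and 4.55 in tamibarotene arrays and 4.26 and 4.47 in vehicle arrays. The Sig-M5 groups did not overlap, yet the change of 0.42 ± 0.20 did not pass the test (SE, adjusted p = 0.122), and only 1 of 5 GBP4 probe sets there separated the groups.

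In the lines with a high vehicle level the GBP4 change was smaller than in MV-4-11, NOMO-1 and OCI-AML3, and within the errors of that in Sig-M5. KG-1a gave 7.73, 7.69 and 7.76 in tamibarotene arrays, against 7.21 and 6.91 in vehicle arrays. Its groups were separate on all 5 probe sets, and the change was 0.67 ± 0.20 (SE, adjusted p = 0.0604), just outside the threshold. It was called there in 5 of 14 alternative runs, with the smallest adjusted p where its 5 probe sets were averaged (0.82, adjusted p = 0.000344). In the other 9 it was not called, and over all 14 the change ran from 0.52 to 0.82 and the adjusted p reached 0.696. OCI-M1 gave 8.77, 9.29 and 9.49 with tamibarotene and 8.61, 8.71 and 8.74 with vehicle, a change of 0.50 ± 0.18 (SE, adjusted p = 0.312). The OCI-M1 groups were separate on 2 of 5 probe sets, the reported one included. Of 15 alternative runs there, only 1 called the change, with the 5 probe sets averaged (0.58, adjusted p = 0.0110). The 7 GBP4 responses differed from each other in the moderated F test (adjusted p = 1.51e-09), a test that 27.4% of all genes passed.

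**Figure D2:**
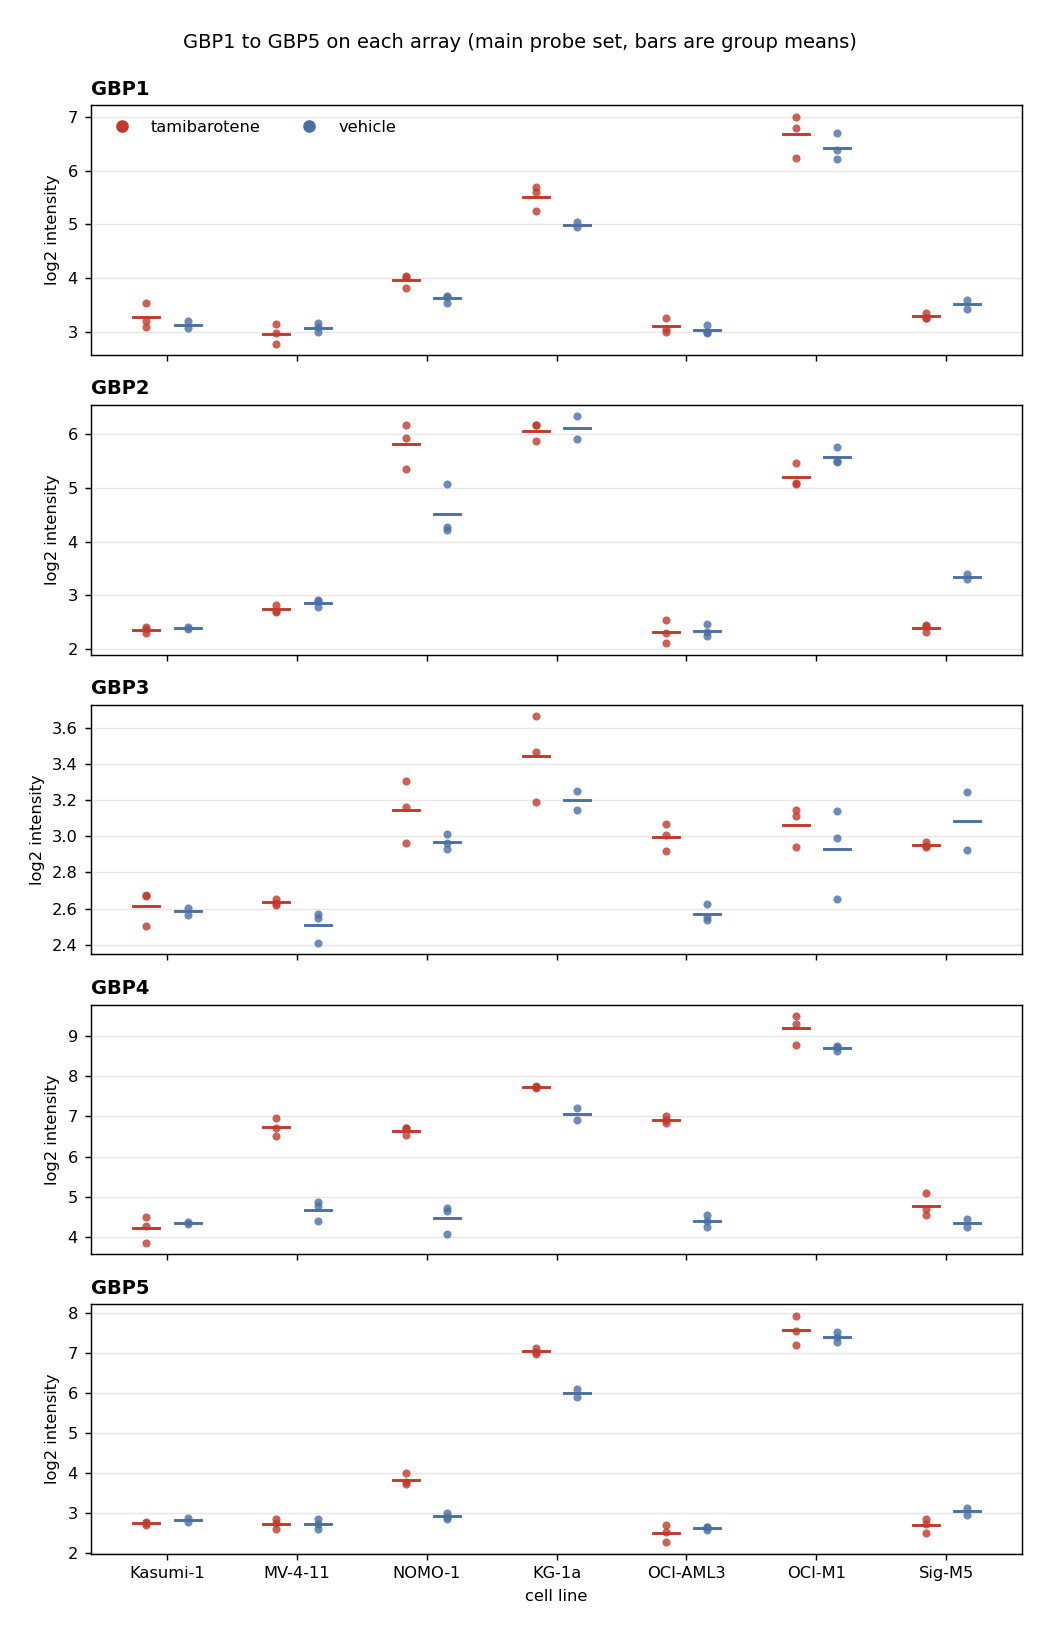
Log2 intensity of GBP1 to GBP5 (a panel each, vertical axis, scales differ) on every array of the 7 lines (horizontal axis), with tamibarotene arrays in red left of vehicle arrays in blue and a bar at each group mean. GBP4 vehicle points sit near 4.4 in 5 lines and near 7.1 and 8.7 in KG-1a and OCI-M1. The tamibarotene points are clear of the vehicle points by a wide gap in MV-4-11, NOMO-1 and OCI-AML3. The gap is narrower in KG-1a, OCI-M1 and Sig-M5, and the points overlap in Kasumi-1.

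GBP5, a prenylated member reported to promote assembly of the NLRP3 inflammasome, was high without drug in the same lines as GBP4. Its vehicle level averaged 7.40 ± 0.12 in OCI-M1 (SD, n = 3) and 6.001 ± 0.14 in KG-1a (SD, n = 2). The 5 other lines had vehicle means of 2.64 to 3.05, again with each line's arrays overlapping the next, in the order Sig-M5, NOMO-1, Kasumi-1, MV-4-11 and OCI-AML3.

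GBP5 was called up in KG-1a and NOMO-1. KG-1a held 7.03, 7.12 and 6.99 in tamibarotene arrays, against 6.10 and 5.90 in vehicle arrays, and both GBP5 probe sets separated the groups. NOMO-1 held 3.78, 3.72 and 3.997 with tamibarotene and 2.90, 2.87 and 3.02 with vehicle. GBP5 thus doubled in KG-1a, by 1.05 ± 0.14 (SE, 2.07-fold, adjusted p = 8.38e-06), and rose by 0.90 ± 0.13 in NOMO-1 (SE, adjusted p = 1.48e-05). No fold is given for NOMO-1, where the vehicle mean of 2.93 lies near the 2.89 median of the 23 background probe sets. The second GBP5 probe set gave a change of 1.24 in KG-1a and 0.29 in NOMO-1, where its groups overlapped. The mean of both rose by 0.60 in NOMO-1 (adjusted p = 0.000559).

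Lines with the largest GBP4 rises apart from NOMO-1 showed little of this in GBP5. Its change was 0.01 ± 0.13 in MV-4-11 (SE, adjusted p = 0.994) and -0.14 ± 0.13 in OCI-AML3 (SE, adjusted p = 0.691). Sig-M5 had 2.84, 2.50 and 2.73 in tamibarotene arrays and 2.95 and 3.14 in vehicle arrays, separate groups with a change of -0.35 ± 0.14 that did not pass the test (SE, adjusted p = 0.0682). Without tamibarotene replicate 1 that change was -0.43 (adjusted p = 0.0432), the only 1 of 13 alternative runs in which it was called. With the beta-actin difference as a covariate the change was -0.20 (adjusted p = 0.6605). Averaged over both probe sets it was -0.235 (adjusted p = 0.168). OCI-M1, with the highest GBP5 level, gave 7.56, 7.21 and 7.94 with tamibarotene and 7.29, 7.41 and 7.52 with vehicle, which overlap (change 0.17 ± 0.13, SE, adjusted p = 0.980). The GBP5 responses differed between lines (moderated F test, adjusted p = 2.09e-06).

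GBP2, another prenylated coat component, had vehicle levels graded over the lines. They ran from 6.12 ± 0.29 in KG-1a (SD, n = 2) and 5.58 ± 0.16 in OCI-M1 (SD, n = 3) through 4.52 ± 0.48 in NOMO-1 (SD, n = 3), 3.34 in Sig-M5 and 2.86 in MV-4-11 to 2.39 in Kasumi-1 and 2.34 in OCI-AML3. Only Kasumi-1 and OCI-AML3, the lowest lines, overlapped as neighbours in this order.

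GBP2 changed in opposite directions in 2 lines. NOMO-1 had 5.35, 5.92 and 6.18 in tamibarotene arrays, against 4.27, 4.22 and 5.07 in vehicle arrays. Sig-M5 had 2.32, 2.44 and 2.42 in tamibarotene arrays, against 3.30 and 3.39 in vehicle arrays. In neither line did the groups overlap, although 1 NOMO-1 vehicle array (5.07) came close to the lowest tamibarotene array (5.35). The change was 1.30 ± 0.18 in NOMO-1 (SE, 2.46-fold, adjusted p = 8.14e-06) and -0.95 ± 0.20 in Sig-M5 (SE, adjusted p = 0.000450).

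Both GBP2 changes rest on 1 of 2 probe sets. The second probe set changed by 0.01 in NOMO-1 and by -0.14 in Sig-M5, with overlapping groups, and its vehicle means were 2.87 and 3.03. The mean of both changed by 0.65 in NOMO-1 (adjusted p = 0.000559) and by -0.55 in Sig-M5 (adjusted p = 0.00279). When NOMO-1 was fitted alone, so that only its own 6 arrays set the spread, the GBP2 change had an adjusted p of 0.1002. The Sig-M5 fall stands in the line whose vehicle arrays had the larger beta-actin differences and where 18.4% of genes were called down. With the beta-actin difference as a covariate, the Sig-M5 change was -0.90 (adjusted p = 0.0464).

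In KG-1a and OCI-M1, where GBP2 was highest, no change was called. KG-1a gave 6.17, 6.16 and 5.87 with tamibarotene and 5.91 and 6.33 with vehicle, which overlap. OCI-M1 gave 5.09, 5.07 and 5.46 with tamibarotene and 5.47, 5.49 and 5.77 with vehicle, separate groups with a change of -0.37 ± 0.18 (SE, adjusted p = 0.687). GBP2 responses differed between lines (moderated F test, adjusted p = 6.64e-06).

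**Figure D3:**
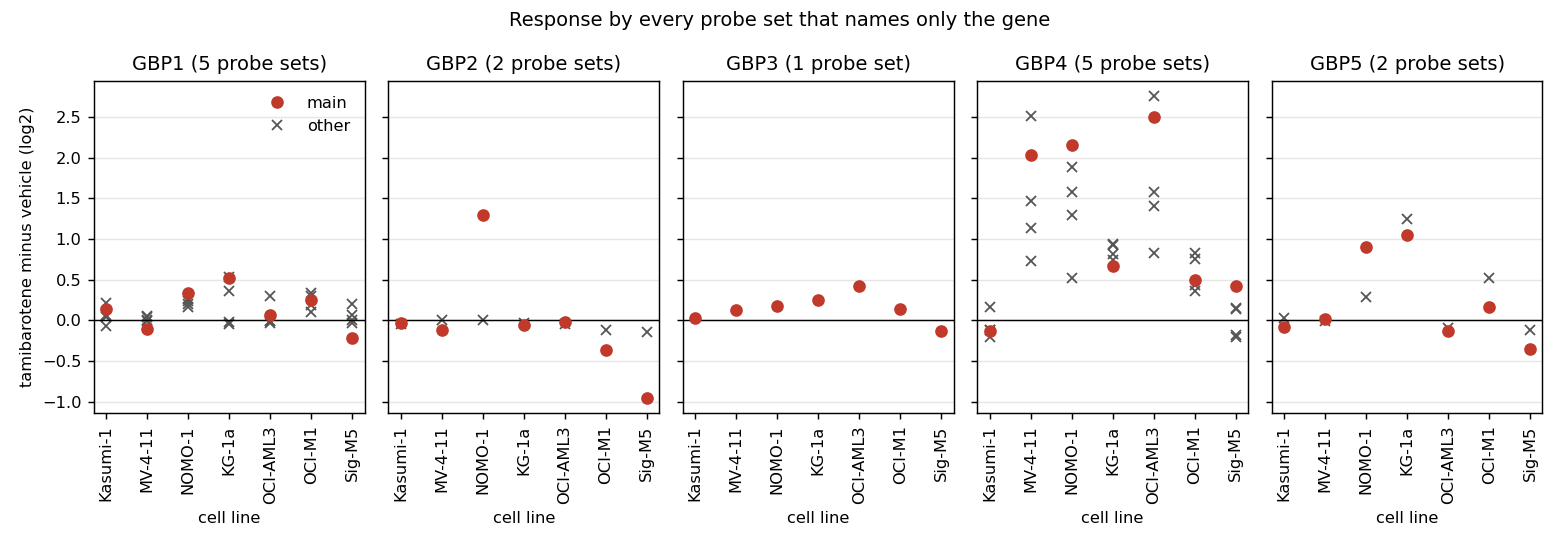
Change of each member (tamibarotene minus vehicle, log2, vertical axis) in the 7 lines (horizontal axis) by every probe set naming only that gene, with the reported probe set as a red dot and the others as crosses. All 5 GBP4 probe sets lie above 0 in every line except Kasumi-1 and Sig-M5, whereas the 2 GBP2 probe sets part in NOMO-1 (1.30 and 0.01) and Sig-M5 (-0.95 and -0.14).

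GBP1, the founding member, which binds bacterial lipopolysaccharide and recruits the others, was highest in the same pair of lines without drug but passed the test nowhere. Its vehicle means were 6.43 ± 0.24 in OCI-M1 (SD, n = 3), 4.99 ± 0.06 in KG-1a (SD, n = 2) and 3.04 to 3.62 in the other lines. KG-1a held 5.69, 5.60 and 5.25 in tamibarotene arrays, against 5.04 and 4.95 in vehicle arrays. NOMO-1 held 4.05, 4.02 and 3.81 with tamibarotene and 3.55, 3.67 and 3.65 with vehicle. The groups were separate in both lines, with changes of 0.52 ± 0.16 in KG-1a (SE, adjusted p = 0.0853) and 0.34 ± 0.15 in NOMO-1 (SE, adjusted p = 0.280). Without KG-1a tamibarotene replicate 3, the lowest of its group, the KG-1a change was 0.65 (adjusted p = 0.0333). That was 1 of 3 alternative runs in which it was called, and in the other 10 of 13 it was not. Averaged over its 5 probe sets, the KG-1a change was 0.27 (adjusted p = 0.580). The moderated F test of the GBP1 responses gave an adjusted p of 0.104.

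Across its 5 probe sets the GBP1 change ran from -0.05 to 0.54 in KG-1a and from 0.17 to 0.34 in NOMO-1. Of these probe sets, 4 including the reported one have names ending in _x_at, a class that may share probes with similar sequences. Both GBP2 probe sets end in _s_at and can pick up related transcripts. How far GBP1, GBP2 and GBP3 signals mix was not tested.

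GBP3, a member without a CaaX box, was measured by 1 probe set at a low level in every line. Vehicle means lay between 2.51 in MV-4-11 and 3.20 in KG-1a, beside a median of 2.89 over 23 background probe sets of the array, whose sequences differ and set no detection limit. OCI-AML3 gave 3.07, 3.01 and 2.92 in tamibarotene arrays, against 2.55, 2.63 and 2.54 in vehicle arrays. These groups were separate, and GBP3 rose by 0.43 ± 0.11 (SE, adjusted p = 0.00696), with no fold given at this level. In the other 6 lines the changes lay between -0.13 and 0.24 and did not pass the test, and the F test of the responses gave an adjusted p of 0.171. On the mean of the lines GBP3 rose by 0.14 (adjusted p = 0.0174), GBP5 by 0.22 (adjusted p = 0.00153) and GBP4 by 1.17 (adjusted p = 4.87e-14).

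The neighbouring family members GBP6 and GBP7 gave no call in any line. Group means of the highest GBP6 probe set lay between 2.52 and 3.02 and those of GBP7 between 2.43 and 2.75, over tamibarotene and vehicle arrays alike.

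Across lines, vehicle levels of GBP1, GBP4 and GBP5 ran together, with Pearson's r of 0.979 for GBP1 with GBP4, 0.985 for GBP1 with GBP5 and 0.992 for GBP4 with GBP5. These coefficients cover 7 line means from the same arrays, and OCI-M1 and KG-1a alone stand apart from a cluster of low lines, so they describe mainly that split. Other genes were then ranked, 2278 with a spread of at least 1 log2 unit between lines, and the 5 members were left out. Those most like GBP5 in vehicle level were DNAJC6, EPSTI1 and ZNF667-AS1 (r of 0.999, 0.997 and 0.990). DNAJC6, MYL4 and EPSTI1 were most like GBP4 (0.993, 0.993 and 0.992), EPSTI1, MYL4 and DNAJC6 most like GBP1 (0.990, 0.985 and 0.985), and MLLT3, PLAAT4 and CLCN4 most like GBP2 (0.966, 0.952 and 0.927). For GBP3 they were PLEKHA5, HSH2D and CYP1B1 (0.953, 0.950 and 0.877).

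Between members, the changes were also compared. The changes of GBP1 and GBP5 had an r of 0.881 over the 7 lines, those of GBP4 and GBP5 of 0.137 and those of GBP1 and GBP4 of -0.07. The changes of 977 genes outside the family had a standard deviation of at least 0.5 between lines. Of these, APOBEC3F, NEURL2 and CMPK2 were most like GBP4 (r of 0.945, 0.938 and 0.938). VPREB1, QPRT and XYLT1 were most like GBP5 (0.908, 0.897 and 0.883) and PLEC, METTL9 and QPRT most like GBP1 (0.957, 0.908 and 0.907). CYP27A1, PFN2 and SELENOP led for GBP2 (0.901, 0.900 and 0.887), and CHST11, RHEX and BMF for GBP3 (0.937, 0.908 and 0.907). With so many genes ranked over 7 points that share arrays, these likenesses are descriptions. The changes of GBP1 and GBP3 had standard deviations of only 0.256 and 0.173 between lines. Their responses were not shown to differ between lines (moderated F test, adjusted p = 0.104 and 0.171), so their patterns may be noise.

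IRF1, the transcription factor that binds the element printed for GBP1, GBP3 and GBP4, was called up in every line except KG-1a. Its change was 1.79 ± 0.09 in OCI-AML3, 1.77 ± 0.09 in NOMO-1, 1.30 ± 0.10 in Sig-M5, 1.27 ± 0.09 in MV-4-11, 0.51 ± 0.10 in Kasumi-1 and 0.36 ± 0.09 in OCI-M1 (SE, largest adjusted p = 0.0352, in OCI-M1). KG-1a had a change of 0.25 (adjusted p = 0.239). The 3 lines with the large GBP4 rise were among the 4 with the largest IRF1 rises, and Sig-M5 was the exception, with an IRF1 change of 1.30 beside a GBP4 change of 0.42. The r of the GBP4 and IRF1 changes was 0.801 over the 7 lines. Of the other pathway genes compared with GBP4 in this way, TAP1 (0.898) and CASP4 (0.842) had a higher r and the rest a lower one. Whether IRF1 acts on GBP4 in these cells was not tested. With IRF1, the changes of GBP1 had an r of -0.435, those of GBP2 of 0.364, those of GBP3 of 0.21 and those of GBP5 of -0.197. In KG-1a, by contrast, GBP5 rose while the IRF1 change did not pass the test. The highest IRF1 vehicle levels were those of OCI-M1 (10.57) and KG-1a (9.33), the lines with the highest GBP1, GBP4 and GBP5, and the other lines lay between 7.46 and 8.78. The IRF1 value comes from the highest of 4 probe sets, and these did not all rise. Their changes ran from 0.04 to 1.87 in OCI-AML3 and from 0.01 to 0.998 in Kasumi-1. In the other lines the lowest of them was below 0, with ranges of -0.12 to 1.33 in MV-4-11, -0.10 to 1.88 in NOMO-1, -0.26 to 1.48 in Sig-M5, -0.01 to 0.57 in OCI-M1 and -0.08 to 0.31 in KG-1a.

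**Figure D4:**
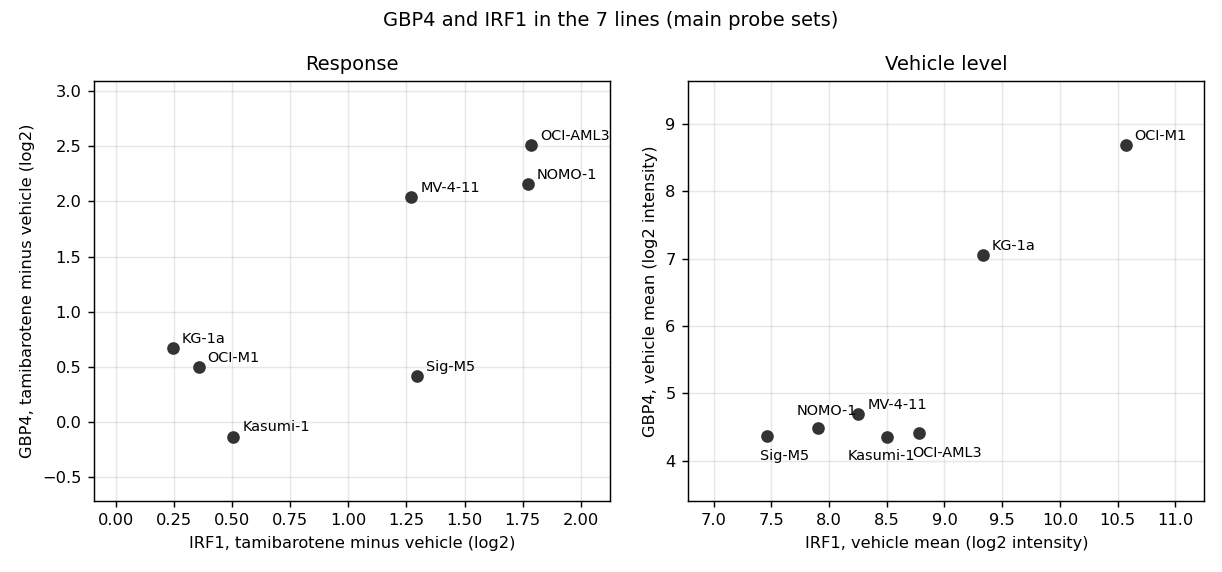
GBP4 (vertical axis) against IRF1 (horizontal axis) in the 7 lines, as the change (tamibarotene minus vehicle, log2) on the left and as the vehicle mean (log2 intensity) on the right. On the left, OCI-AML3, NOMO-1 and MV-4-11 stand at the upper right and Sig-M5 lies below them at 1.30 and 0.42. On the right, OCI-M1 and KG-1a stand apart from 5 lines with a GBP4 level near 4.4.

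IRF8, a related myeloid factor, ran the other way in vehicle arrays. Its vehicle level was 3.78 in OCI-M1 and 4.36 in KG-1a, the lines high for GBP1, GBP4 and GBP5, and 7.50 in Kasumi-1, 10.86 in NOMO-1, 11.00 in Sig-M5, 12.39 in MV-4-11 and 12.83 in OCI-AML3. No IRF8 change passed the test in any line.

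Interferon ligands themselves were not called. Of 6 ligand genes measured, including IFNG, none passed the test in any line, and IFNG group means stayed between 3.39 and 3.73. Of the receptor chains, IFNGR1 rose in Sig-M5 by 1.39 ± 0.24 (SE, adjusted p = 3.81e-05), at 8.39 in tamibarotene arrays and 7.004 in vehicle arrays, and passed the test in no other line. That rise stands in the line whose vehicle arrays had the larger beta-actin differences, and its dependence on RNA quality was not tested. IFNGR2 passed the test nowhere, with changes of -0.24 to 0.23. Over 16 measured receptors, kinases and transcription factors of the pathway, 3 were called up and none down on the mean of the lines, beside 6.71% and 12.4% of all genes. Their median change was 0.07 against -0.02 for all genes. The 3 called up were IRF1, IRF9, a subunit of the type I interferon transcription complex, by 0.38 ± 0.04, and the receptor chain IFNAR2 by 0.25 ± 0.06 (SE).

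Calls among other interferon-gamma targets were counted in each line. Of 24 measured interferon-gamma targets outside the family, 13 were called up in OCI-AML3, 11 in NOMO-1, 7 in MV-4-11, 4 in Sig-M5, 2 each in Kasumi-1 and KG-1a, and 1 in OCI-M1. Called down were 3 in Sig-M5 and 1 each in OCI-AML3 and OCI-M1. Of all genes, 5.5% were called up in OCI-AML3, 2.77% in NOMO-1, 4.32% in MV-4-11, 8.5% in Sig-M5, 0.48% in Kasumi-1, 1.21% in KG-1a and 0.7% in OCI-M1. The share of all genes called down was 18.4% in Sig-M5, so its 3 of 24 is no more than the background. Of 24 measured type I targets, 5 were called up in OCI-AML3, 3 in NOMO-1, 2 each in MV-4-11 and Sig-M5, 1 in KG-1a and none in Kasumi-1 or OCI-M1. A single type I target was called down in KG-1a, Kasumi-1 and OCI-M1 each, and 3 in Sig-M5. Of all genes, 1.88% were called down in KG-1a, 2.36% in Kasumi-1, 0.386% in OCI-M1 and 6.36% in OCI-AML3. The Sig-M5 counts of type I targets, 2 up and 3 down, are no more than the background. The difference between the lists was not tested. The median change of the interferon-gamma targets was 0.38 in OCI-AML3, 0.32 in NOMO-1 and 0.14 in MV-4-11, against -0.03, 0.02 and -0.01 for all genes.

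Among these targets, WARS1, the tryptophanyl-tRNA synthetase induced by interferon-gamma, rose by 1.46 ± 0.09 in Sig-M5, 1.13 ± 0.08 in OCI-AML3, 0.84 ± 0.08 in NOMO-1 and 0.67 ± 0.08 in MV-4-11 (SE). WARS1 also rose by 0.47 ± 0.09 in Kasumi-1 and 0.43 ± 0.08 in OCI-M1 (SE), lines in which no member of the family was called. BATF2, a transcription factor, rose by 2.33 ± 0.18 in OCI-AML3 and 1.58 ± 0.18 in MV-4-11, and IFI30, a lysosomal thiol reductase, by 2.27 ± 0.12 in MV-4-11 (SE). PSMB9, an immunoproteasome subunit, rose by 0.69 ± 0.09 in NOMO-1 and 0.67 ± 0.10 in Kasumi-1 (SE), where no guanylate-binding protein was called. In KG-1a the called targets were APOL3 (0.87 ± 0.18) and the adhesion molecule ICAM1 (1.03 ± 0.22, SE). FCGR1A, the high-affinity IgG receptor, fell by 1.58 in OCI-AML3 and by 1.11 in Sig-M5. Changes as large were called among the type I targets. IFI6 rose by 2.28 ± 0.16 in Sig-M5, 2.10 ± 0.14 in OCI-AML3, 1.57 ± 0.14 in MV-4-11 and 0.66 ± 0.14 in NOMO-1 (SE). IFI35 rose by 1.37 ± 0.11 in MV-4-11 and 1.025 ± 0.11 in OCI-AML3, whereas HERC5 fell by 1.30 ± 0.21 in Sig-M5 (SE).

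Genes of inflammasomes and pyroptosis, in whose pathways these proteins act, were counted likewise. On the mean of the lines, 5 of 12 were called up and 1 down, beside 6.71% and 12.4% of all genes, with a median change of 0.10 against -0.02 for all genes. NLRP3, the sensor that GBP5 is reported to help assemble, rose by 1.18 ± 0.12 in Sig-M5, 0.76 ± 0.10 in OCI-AML3, 0.67 ± 0.10 in MV-4-11 and 0.44 ± 0.12 in KG-1a (SE), while GBP5 rose in only the last of these. CASP4, the caspase activated on GBP1 coats, rose by 0.48 in OCI-AML3 and 0.33 in MV-4-11. GSDMD, the pore-forming substrate of that caspase, rose by 0.71 in OCI-AML3 (adjusted p = 0.00165) and passed the test in no other line. In OCI-AML3, where 5 genes of the list were called up, the 1 called down was IL1B, by 0.90 ± 0.13 (SE, adjusted p = 7.56e-06). Of all genes, 5.5% were called up in OCI-AML3 and 6.36% down. CASP1 fell by 0.68 in Sig-M5 (adjusted p = 0.00492).

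Of the enzymes that prenylate and process CaaX proteins, 1 of 5 was called down and none up on the mean of the lines, where 12.4% of all genes were called down and 6.71% up. RCE1, the CaaX protease, fell by 0.62 ± 0.11 in Sig-M5 (SE). Of 6 other interferon-induced GTPases and partners of the family, 2 were called up and 1 down on the mean of the lines, including PIM1, a kinase that restrains GBP1, which rose by 1.07 ± 0.11 in MV-4-11 (SE). The related atlastin ATL1 rose by 0.77 ± 0.12 in NOMO-1, and ATL3 fell by 0.45 ± 0.08 in OCI-AML3 and by 0.42 ± 0.09 in Sig-M5 (SE).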

How the data were processed

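Total RNA of 39 samples of leukemia cell lines was hybridised to Affymetrix PrimeView arrays, 21 with tamibarotene and 18 with vehicle. The deposited values are log2 intensities that the authors made with affy and RMA, per the submitters' processing notes; no version is given, nor whether the arrays went through RMA jointly, and background and scale set there cannot be undone here. Symbols come from the platform annotation: 44988 probe sets named 1 gene, 1832 several and 2473 none, beside 102 control probe sets, and 12 genes of the lists were not analysed here. Each gene is its brightest probe set on average.

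In R 4.3.3, limma 3.58.1 fitted 14 group means, 1 per line and arm, to all arrays at once (default eBayes; 25 degrees of freedom remained), so that lines with 2 vehicle arrays borrow the pooled spread. Adjustment was by Benjamini-Hochberg over the 18132 genes of a contrast. The fit was tested on simulated data. Python 3.11.15 searched the promoters, and matplotlib 3.10.9 drew the figures. The number of arrays limits the precision.

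Named genes are the members, the 3 smallest adjusted p-values of each list in a contrast, and a fixed set of pathway genes. Added to these are the 3 genes outside the family most like each member in its changes or vehicle levels. The text gives some of them. The members and lists were chosen with earlier results of these data known. Same-numbered arrays of the arms deviated together (every correlation of deviations above 0.1) in OCI-M1 alone, from 0.118 to 0.371, which comes from the data and not the labels. The correlations reached higher, with a lower minimum, in MV-4-11 (0.10 to 0.67), NOMO-1 (0.01 to 0.572) and OCI-AML3 (-0.043 to 0.461). None exceeded 0.117 in the lines with 2 vehicle arrays. Alternatives were other limma settings, array weights, quantile normalization, other choices of probe sets, a filter on dim genes, a beta-actin covariate, a replicate block, each line alone, and each array left out.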

Additional observations from a re-analysis of the deposited data

Results flagged for a closer look

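The response to tamibarotene differed between the 7 lines for 3 members by the moderated F test in limma, which 27.4% of all genes passed. For GBP4 the adjusted p was 1.51e-09, with 2.51 in OCI-AML3 as its highest change and -0.13 in Kasumi-1 as its lowest. For GBP5 it was 2.09e-06, with changes from -0.35 in Sig-M5 to 1.05 in KG-1a. For GBP2 it was 6.64e-06, with changes from -0.95 in Sig-M5 to 1.30 in NOMO-1, and both of these extremes were seen on 1 of 2 probe sets.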

How the results depend on the processing

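No result of the family changed direction with a call under any alternative run. The GBP4 calls in MV-4-11, NOMO-1 and OCI-AML3 held in all of them, with changes of 1.58 to 2.15, 1.49 to 2.27 and 1.82 to 2.58, and the following held wherever the gene was tested: GBP5 in KG-1a (0.94 to 1.15) and NOMO-1 (0.60 to 0.96), GBP3 in OCI-AML3 (0.39 to 0.47) and GBP2 in Sig-M5 (-0.99 to -0.55). The count called up in KG-1a, 1 in the fit reported, was 3 with array weights, 3 with the replicate block, 2 with the mean of all probe sets, 2 with the line fitted alone and 1 to 2 with an array left out; 2 came without tamibarotene replicate 3, where GBP1 reached 0.65 (adjusted p = 0.0333). The added gene was GBP4 in KG-1a under the first 4 of these, joined by GBP1 under the first 2, with adjusted p for GBP4 of 0.00118 (array weights) and 0.0373 (replicate block); it was also called without the dimmest genes (0.0474). Array weights also called GBP1 in NOMO-1 (0.41, adjusted p = 0.0406). The count up in OCI-M1 was 1 with the mean of all probe sets (GBP4, 0.58, adjusted p = 0.0110) in place of 0, and that in Sig-M5 was 1 with the replicate block (GBP4, 0.54, adjusted p = 0.0256) in place of 0. The count down in Sig-M5 ran from 1 to 2 with an array left out, where GBP5 reached -0.43 without tamibarotene replicate 1 (adjusted p = 0.0432). Without the dimmest tercile of genes GBP4 was the only member left, so the counts fell to 1 up in NOMO-1, 1 up in OCI-AML3, 0 down in Sig-M5, 1 up on the mean of the lines, 1 for differing responses and 1 for differing vehicle levels. GBP1 on the mean of the lines, 0.14 with an adjusted p of 0.0975, was called with the replicate block (0.17, adjusted p = 0.0258), when Sig-M5 and Kasumi-1 were left out (0.21, adjusted p = 0.0427), and when 1 OCI-M1 array was: 0.17 without tamibarotene replicate 2 (adjusted p = 0.0148) and 0.16 without vehicle replicate 1 (adjusted p = 0.0478). GBP2 in NOMO-1 was not called with the line alone (adjusted p = 0.1002). Apart from the fewer genes tested, the cause of these changes was not tested. Responses that differ between lines were counted for 4 members in place of 3 with the replicate block, with array weights, without KG-1a tamibarotene replicate 3 and without OCI-M1 tamibarotene replicate 2. Beside the counts and calls named here, the replicate block moved none. The low signal of GBP3, and of GBP1, GBP2 and GBP5 outside the lines with high levels, limits what their small changes can show.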
